A study of Homo sapiens with 6 samples.

Results

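The genes examined here are the ligands and receptors of the epidermal growth factor (EGF) family together with an inhibitor of the receptors, in cells labelled HepG2 with or without knockdown of ARHGEF2. They were chosen by name: the receptor genes EGFR, ERBB2 and ERBB3, the ligand genes AREG, EREG, HBEGF, TGFA, BTC and NRG1, and ERRFI1. All 10 names were found among the 27605 genes of the deposited table. RNA sequencing was performed on cells that the labels name HepG2, a human hepatoma cell line, and that carried a control hairpin (shNC, labelled WT, n = 3 libraries) or a hairpin against ARHGEF2 delivered by lentivirus (shARHGEF2, n = 3 libraries). Both groups were grown in the same medium with fetal bovine serum. The labels give neither the number of hairpins nor separate cultures, so the p-values below measure only the spread between these libraries, which may be technical. Expression is given as FPKM (fragments scaled to transcript length and to the size of the library), as the authors deposited it.

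EGF family ligands are made as membrane-bound precursors, and metalloproteinases of the ADAM family cut them free. The released ligands bind ERBB receptors, which pair, phosphorylate each other and recruit adaptors such as GRB2 and SHC1 to start RAS-ERK and PI3K signalling. EGFR binds EGF, TGF-alpha and amphiregulin, whereas ERBB3 binds neuregulins and ERBB2 has no known ligand of its own and acts as a partner. Bound receptors are ubiquitinated by CBL and sorted to lysosomes, and ERRFI1 (also MIG6) binds the kinase domain of EGFR and inhibits it. In the liver this system is known for its part in regeneration and in hepatocellular carcinoma.

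The targeted gene was measured first. ARHGEF2, which encodes the RhoA exchange factor that the hairpin targets, had 13.03, 14.4 and 13.95 FPKM in the shNC libraries and 4.249, 4.004 and 4.817 FPKM in the shARHGEF2 libraries (log2 fold change -1.47, SE 0.11, adjusted p = 0.00244 in limma). The label of the cells was also checked against markers of hepatocytes. Of 12 hepatocyte markers, 6 (ALB, APOB, TTR, FGB, TF and AHSG) were not found in the table, AFP, APOA1, SERPINA1 and HNF4A stayed under 0.25 FPKM in every library, and VTN alone averaged 1 FPKM or more. The summed level of the list ran from 5.92 to 6.21 FPKM in shNC and from 6.67 to 7.57 FPKM in shARHGEF2 libraries. On these markers the data go against the label, and the identity of the cells is in doubt. The keratin genes KRT8, KRT18 and KRT19 were between 60.4 and 216 FPKM. Among 6 squamous markers, KRT17 and SFN averaged 1 FPKM or more and KRT5, KRT6A and TP63 were near 0 (sum 684 to 1008 FPKM in shNC and 860 to 978 FPKM in shARHGEF2). Among 6 stromal markers, LUM, COL1A1, COL3A1 and DCN averaged 1 FPKM or more and COL1A2 was near 0 (sum 39.8 to 52.6 and 38.7 to 45.6 FPKM). The 6 epithelial markers, of which EPCAM and CDH1 were near 0 and the 3 keratins and CLDN4 were not, summed to between 362 and 464 FPKM in shNC and between 346 and 427 FPKM in shARHGEF2. Of the endothelial markers, ENG averaged 44.8 FPKM and CDH5, VWF and TEK were near 0 (sum 39.1 to 54.9 and 42.5 to 51.3 FPKM), and of the leukocyte markers, CD68 averaged 77.9 FPKM and LYZ, CD3E and PTPRC were near 0 (sum 60.6 to 88.0 and 75.3 to 85.7 FPKM). No marker was called, but 4 tested markers had groups that did not overlap, all higher in shARHGEF2: SFN (log2 fold change 0.34, adjusted p = 0.184 in limma), COL1A1 (0.39, adjusted p = 0.188 in limma), PECAM1 (0.19, adjusted p = 0.438 in limma) and VTN (0.18, adjusted p = 0.481 in limma). They were 1 of 3 tested squamous, 1 of 5 stromal, 1 of 2 endothelial and 1 of 1 hepatocyte markers. No tested epithelial (4) or leukocyte (1) marker had such groups. Over all genes tested, 20.5% had groups that did not overlap, 11.3% of them higher in shARHGEF2 and 9.17% lower, as shares of all genes. The direction of these 4 markers is that of the ligands described below, and the part of other cells in those values was not tested. The depth was estimated, only roughly because whole reads were not recovered, at between 20200000 and 23220000 read pairs per library. In RNA from bulk cells, fewer cells that express a gene and less RNA per cell cannot be told apart.

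AREG, EREG and HBEGF are shown first by the sequence before their start sites, because the groups did not overlap for AREG and HBEGF and EREG was the most abundant ligand. Each line gives the 250 bases before the RefSeq start site, 5′ to 3′ on the strand of the gene, on GRCh38.p14. Capitals mark matches, on either strand, to the cyclic AMP response element TGACGTCA, the AP-1 motif TGANTCA, the TEAD motif GGAATG, the GC box GGGCGG and the TATA motif TATAAA. The AREG window is chr4:74444886-74445135 on the plus strand, the EREG window is chr4:74364895-74365144 on the plus strand and the HBEGF window is chr5:140346604-140346853 on the minus strand.
AREG: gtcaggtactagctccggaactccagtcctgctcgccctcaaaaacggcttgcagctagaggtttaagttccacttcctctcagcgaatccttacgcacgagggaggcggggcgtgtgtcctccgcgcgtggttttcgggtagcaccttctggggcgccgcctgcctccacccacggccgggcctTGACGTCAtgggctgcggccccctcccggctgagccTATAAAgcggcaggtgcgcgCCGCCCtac
EREG: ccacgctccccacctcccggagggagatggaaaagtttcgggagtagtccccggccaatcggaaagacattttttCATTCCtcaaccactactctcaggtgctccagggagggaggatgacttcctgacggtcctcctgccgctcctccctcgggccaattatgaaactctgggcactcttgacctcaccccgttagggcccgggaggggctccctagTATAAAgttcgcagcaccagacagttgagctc
HBEGF: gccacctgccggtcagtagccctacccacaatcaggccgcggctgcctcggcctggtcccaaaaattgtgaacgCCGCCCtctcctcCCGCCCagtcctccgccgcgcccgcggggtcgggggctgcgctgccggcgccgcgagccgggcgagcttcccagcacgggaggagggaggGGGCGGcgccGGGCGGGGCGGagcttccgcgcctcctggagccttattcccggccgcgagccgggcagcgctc

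The windows of these ligand genes differed in what they held. With positions counted from the start site, AREG had TGACGTCA with its first base at -65 and TATAAA at -29, and EREG had TATAAA at -32 and GGAATG, read on the other strand, at -175. HBEGF had 5 copies of GGGCGG, 2 of which overlap, and neither TATAAA nor TGACGTCA, with 76.4% G and C against 65.2% for AREG and 58.0% for EREG. Over the 35116 RefSeq windows of 300 bases (250 before and 50 after a start site), TGACGTCA was held by 1.85%, TGANTCA by 7.71%, GGAATG by 14%, TATAAA by 11.5% and GGGCGG by 45%. Windows were found for 8 of the 10 genes. Of these, AREG alone held TGACGTCA, and TGANTCA was held by windows of EGFR and ERBB2 but of none of the ligands that had a window. In EGFR the matches to TGANTCA lay in the window starting at 55109589 and not in that starting at 55018767. A match of letters is a description and not a bound site.

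By level, the genes fell in the order EREG, EGFR, ERBB2, ERRFI1, TGFA, AREG, HBEGF, ERBB3, NRG1 and BTC, with means over the 6 libraries from 15.2 FPKM for EREG to 0.170 FPKM for BTC. Not all neighbours in this order were apart. EREG was above EGFR in 4 of 6 libraries, ERRFI1 was above TGFA in 2 of 6, AREG was above HBEGF in 5 of 6, and NRG1 was above BTC in 4 of 6. EGFR was above ERBB2, ERBB2 above ERRFI1, TGFA above AREG, HBEGF above ERBB3 and ERBB3 above NRG1 in 6 of 6 libraries. EGFR and ERBB2 were thus the most abundant receptor transcripts and EREG and TGFA the most abundant ligand transcripts among the genes examined, whereas NRG1, a ligand of ERBB3, and BTC were at or under 0.285 FPKM in every library.

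**Figure D1:**
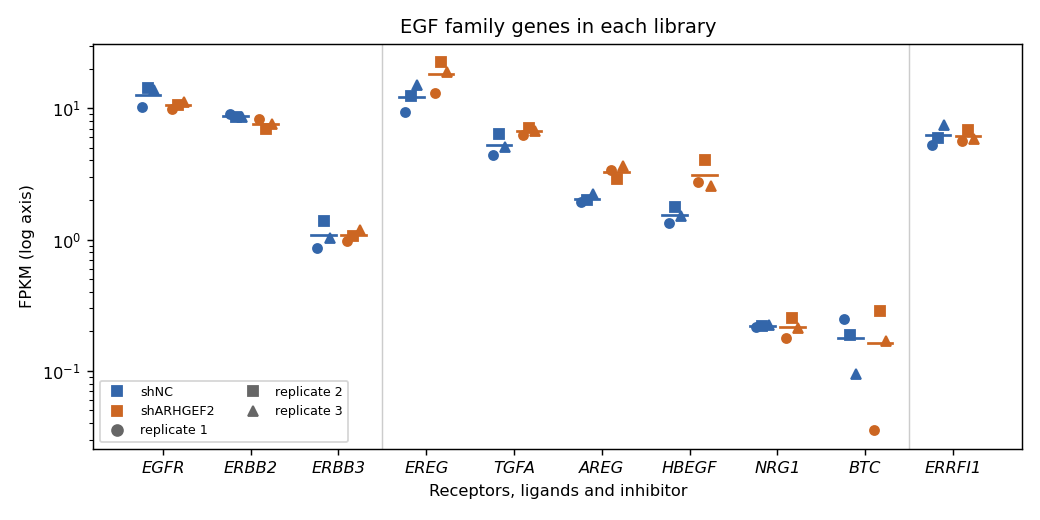
FPKM on a log axis of the 3 receptors, the 6 ligands and ERRFI1, with 1 symbol per library (shNC in blue, shARHGEF2 in orange, shapes for replicates) and a bar at each group's mean. AREG and HBEGF are the ligands in which each orange symbol lies above each blue one, and NRG1 and BTC lie far below the rest.

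The groups were compared with limma on log2(FPKM + 1) over the 12291 genes that averaged 0.5 FPKM or more, and p-values were adjusted over all of them. Of the 10 family genes, 8 passed this filter, and BTC and NRG1 did not. None of the 8 was called at an adjusted p under 0.05, in a comparison that called 34 genes, or 0.277% of those tested (0.195% higher and 0.0814% lower in shARHGEF2 cells). At an unadjusted p under 0.05, 4 of the 8 were higher in shARHGEF2 cells (HBEGF, AREG, EREG and TGFA) and 0 were lower, against 8.1% and 5.55% of all genes tested. The 4 are all the ligand genes among the 8, and EPGN, a tested ligand gene outside the 10 chosen names, had a log2 fold change of -0.05. Their means in the shNC libraries alone were between 1.54 and 12.2 FPKM, so they would also have passed the filter on those libraries. The groups did not overlap for 3 of the 8 genes, with AREG and HBEGF higher and ERBB2 lower, where 20.5% of all genes tested had groups that did not overlap (11.3% higher and 9.17% lower). The median log2 fold change was 0.16 over the 8 genes and 0.00 over all genes tested.

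Among the ligands, HBEGF, which encodes heparin-binding EGF-like growth factor located at 140332843 to 140346631 on chromosome 5 (GRCh38, minus strand), had 1.33, 1.77 and 1.52 FPKM in the shNC libraries and 2.75, 4.03 and 2.57 FPKM in the shARHGEF2 libraries. Each shARHGEF2 library lay above each shNC library, and shARHGEF2 replicate 2 was the highest of all. The means were 1.54 ± 0.218 and 3.12 ± 0.798 FPKM (SD, n = 3 each), a ratio of 2.02. The log2 fold change was 0.68 (SE 0.16, 95% interval 0.33 to 1.04, adjusted p = 0.126 in limma), which ranked HBEGF 196th by p of 12291 genes. The exact permutation test gave p = 0.1 (two-sided), the smallest p that 3 libraries against 3 allow. At these low levels the pseudocount of 1 pulls the value towards 0, and with a pseudocount of 0.1 the log2 fold change was 0.95. Without shARHGEF2 replicate 2 it was 0.53.

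AREG encodes amphiregulin, which binds EGFR. It had 1.92, 2.02 and 2.22 FPKM in the shNC libraries and 3.37, 2.91 and 3.61 FPKM in the shARHGEF2 libraries. The groups were apart, and the spread within each was small, with means of 2.05 ± 0.154 and 3.30 ± 0.353 FPKM (SD, n = 3 each) and a ratio of 1.61. The log2 fold change was 0.49 (SE 0.12, 95% interval 0.22 to 0.76, adjusted p = 0.136 in limma), and the gene ranked 251st by p. The exact permutation test gave p = 0.1, again the smallest possible. AREG kept an unadjusted p under 0.05 in each of the 14 alternative fits, as HBEGF did.

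EREG encodes epiregulin, a ligand of EGFR and ERBB4, and was the most abundant ligand transcript. Its values were 9.29, 12.3 and 15.1 FPKM in shNC and 13.1, 22.3 and 19.0 FPKM in shARHGEF2 libraries. The groups overlapped, since shARHGEF2 replicate 1 lay below shNC replicate 3, and in each group replicate 1 was the lowest. The means were 12.2 ± 2.91 and 18.1 ± 4.68 FPKM (SD, n = 3 each), a ratio of 1.48, with a log2 fold change of 0.53 (SE 0.22, 95% interval 0.02 to 1.03, adjusted p = 0.356 in limma). The exact permutation p was 0.2. The listed transcripts of EREG have a mean GC content of 39.2%, and across the 12231 tested genes with a known GC content the deviation of a library from its group's mean had a Spearman's rho with GC content of 0.378 in shNC replicate 1 and 0.601 in shARHGEF2 replicate 1, as against -0.522 and -0.488 in the replicates 2. With a trend on GC content removed from each library the log2 fold change of EREG was 0.55 (adjusted p = 0.175 in limma), and with both libraries numbered 1 left out it was 0.56 (adjusted p = 0.393 in limma).

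TGFA, located at 70447280 to 70554193 on chromosome 2 (GRCh38, minus strand), encodes transforming growth factor alpha, a ligand of EGFR. It had 4.37, 6.36 and 5.02 FPKM in shNC and 6.29, 7.11 and 6.73 FPKM in shARHGEF2 libraries. The groups overlapped by 1 pair of libraries, shNC replicate 2 and shARHGEF2 replicate 1. The means were 5.25 ± 1.02 and 6.71 ± 0.411 FPKM (SD, n = 3 each), and the log2 fold change was 0.31 (SE 0.14, 95% interval 0.00 to 0.63, adjusted p = 0.366 in limma, exact permutation p = 0.2). Its unadjusted p of 0.0494 stood just inside 0.05 and was 0.17 in limma without shNC replicate 1.

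The remaining ligands were close to the limit of detection. NRG1, the gene of neuregulin 1 on chromosome 8, had 0.214, 0.222 and 0.223 FPKM in shNC and 0.179, 0.253 and 0.211 FPKM in shARHGEF2 libraries. BTC, the gene of betacellulin, had 0.249, 0.187 and 0.0953 FPKM in shNC and 0.0353, 0.285 and 0.169 FPKM in shARHGEF2 libraries. In both genes the groups overlapped, and a difference was not detectable at these low levels.

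**Figure D2:**
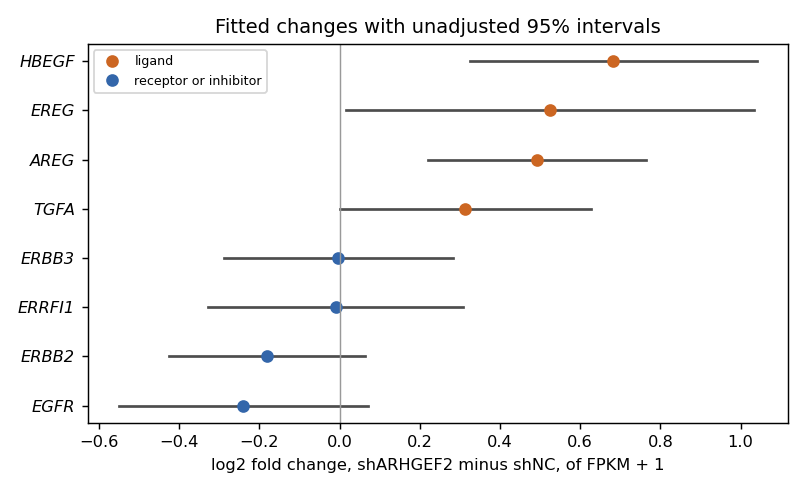
Log2 fold change of FPKM + 1 (shARHGEF2 minus shNC) with its unadjusted 95% interval from limma for the 8 tested genes, ligands in orange and the receptors and ERRFI1 in blue. The 4 ligands lie between 0.31 and 0.68, and the intervals of the other 4 genes include 0.

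The ligand genes were also set together. The summed level of the 6 ligands was 17.4, 22.8 and 24.2 FPKM in shNC and 25.7, 36.9 and 32.3 FPKM in shARHGEF2 libraries, with means of 21.5 ± 3.61 and 31.6 ± 5.63 FPKM (SD, n = 3 each). The sum was not tested. The gap between the groups rests on leaving out EPGN, an expressed ligand gene outside the 6. EPGN had 2.45 FPKM in shNC replicate 3 and 0.920 FPKM in shARHGEF2 replicate 1, the libraries whose sums were closest. EREG, the largest part of the sum, had groups that overlapped. EREG made up the largest share of this sum in both groups. It was 56.6% ± 5.09 of it in shNC and 56.7% ± 5.11 in shARHGEF2, TGFA was 24.6% ± 3.57 and 21.5% ± 2.66, AREG was 9.67% ± 1.19 and 10.7% ± 2.64, and HBEGF was 7.23% ± 0.820 and 9.86% ± 1.64 (SD, n = 3 each). The share of HBEGF was between 6.29% and 7.74% in the shNC libraries and between 7.97% and 10.9% in the shARHGEF2 libraries. That of NRG1, which was close to the limit of detection, was between 0.92% and 1.23% in shNC and between 0.653% and 0.697% in shARHGEF2 libraries. NRG1 itself averaged 0.220 and 0.214 FPKM with groups that overlapped, so its lower share reflects the larger sum. The shares of the other ligands overlapped between the groups.

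**Figure D3:**
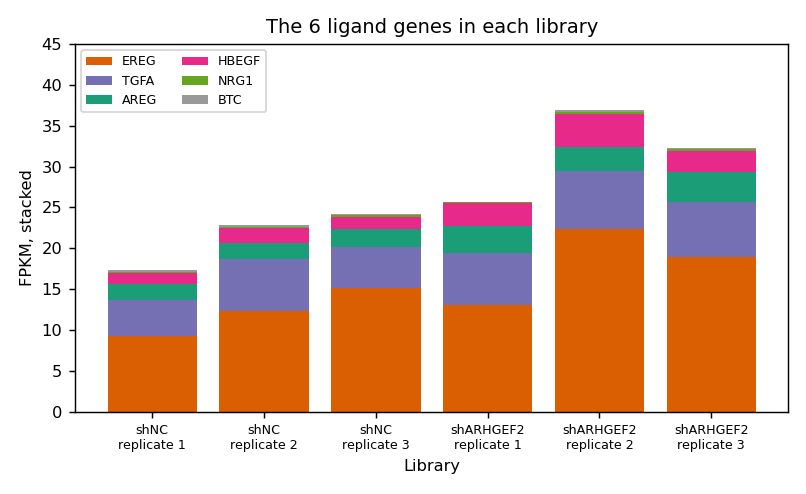
FPKM of the 6 ligand genes stacked for each library, with the libraries on the horizontal axis. The 3 shARHGEF2 bars, from 25.7 to 36.9 FPKM, stand above the 3 shNC bars, from 17.4 to 24.2 FPKM, and EREG is the largest part of each. EPGN is not in the bars, and the gap between the groups rests on leaving it out.

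Several ligand genes are neighbours. EPGN, EREG, AREG and BTC lie within 486 kb of chromosome 4 of GRCh38, and the annotation places no other protein-coding gene inside that stretch. AREG runs from 74445134 to 74455009 and EREG from 74365143 to 74388751, both on the plus strand. BTC is given above. EPGN, which encodes epigen, another ligand of EGFR, had 0.949, 2.76 and 2.45 FPKM in shNC and 0.920, 2.27 and 2.63 FPKM in shARHGEF2 libraries (log2 fold change -0.05, SE 0.32, adjusted p = 0.974 in limma). In EPGN the libraries numbered 1 were the lowest of both groups, by more than the groups differed.

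Of the receptors, EGFR, on chromosome 7 from 55019021 to 55211628, had 10.1, 14.2 and 13.8 FPKM in shNC and 9.86, 10.5 and 11.1 FPKM in shARHGEF2 libraries. The groups overlapped because of shNC replicate 1, and the means were 12.7 ± 2.22 and 10.5 ± 0.625 FPKM (SD, n = 3 each). The log2 fold change was -0.24 (SE 0.14, 95% interval -0.55 to 0.07, adjusted p = 0.481 in limma, exact permutation p = 0.3). It was -0.38 without shNC replicate 1 (adjusted p = 0.352 in limma) and -0.16 without shNC replicate 2 (adjusted p = 0.714 in limma). An antisense gene, EGFR-AS1, has a row of its own in the table, and whether reads were counted by strand is not given in the sources used here.

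ERBB2, the partner receptor also known as HER2, on chromosome 17 from 39687914 to 39730426, had 9.07, 8.55 and 8.63 FPKM in shNC and 8.34, 6.89 and 7.62 FPKM in shARHGEF2 libraries. The groups did not overlap, with all shARHGEF2 libraries lower, but shNC replicate 2 and shARHGEF2 replicate 1 were close. The means were 8.75 ± 0.282 and 7.62 ± 0.725 FPKM (SD, n = 3 each), the log2 fold change was -0.18 (SE 0.11, 95% interval -0.43 to 0.06, adjusted p = 0.501 in limma), and the exact permutation p was 0.1, the smallest possible. Without shARHGEF2 replicate 2 the log2 fold change was -0.12 (adjusted p = 0.787 in limma).

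ERBB3, the kinase-impaired receptor of neuregulins on chromosome 12 from 56076799 to 56103505, had 0.865, 1.37 and 1.03 FPKM in shNC and 0.976, 1.06 and 1.19 FPKM in shARHGEF2 libraries. The groups overlapped throughout, and the log2 fold change was 0.00 (SE 0.13, 95% interval -0.29 to 0.28, adjusted p = 0.996 in limma). ERRFI1, the inhibitor, on chromosome 1 from 8004404 to 8026308, had 5.23, 5.98 and 7.40 FPKM in shNC and 5.63, 6.86 and 5.86 FPKM in shARHGEF2 libraries. Its log2 fold change was -0.01 (SE 0.14, 95% interval -0.33 to 0.31, adjusted p = 0.99 in limma). For neither gene did the interval reach a change of 0.5 on the log2 scale in either direction, and the sign of both changed with the library left out.

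**Figure D4:**
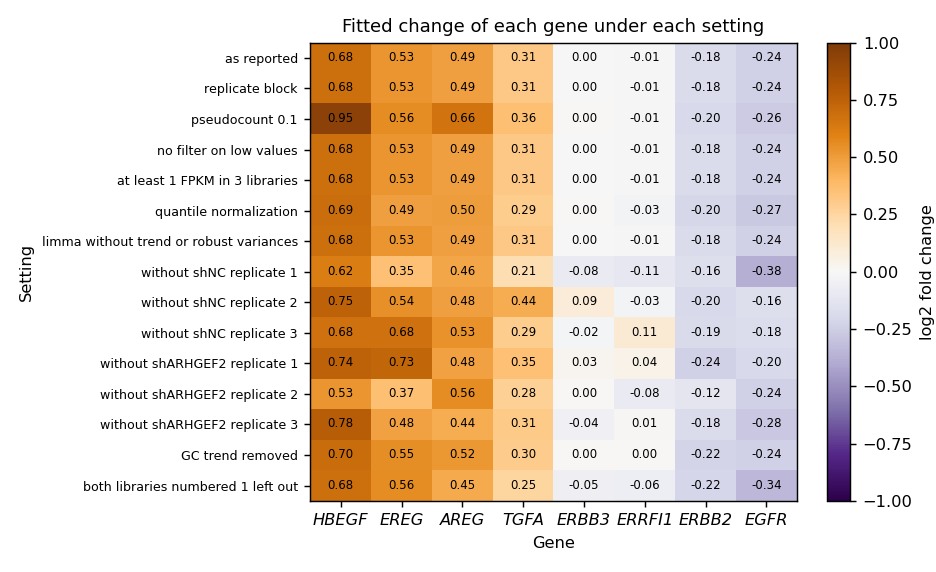
Log2 fold change of the 8 tested genes (columns) as reported and under 14 other settings (rows), with the value in each cell and orange for higher and purple for lower in shARHGEF2. The 4 ligand columns are above 0 in each row, EGFR and ERBB2 are below 0 in each row, and ERBB3 and ERRFI1 take both signs.

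Apart from EPGN, the rest of the family was barely expressed. EGF did not exceed 0.0171 FPKM, ERBB4 had at most 0.110, NRG2 at most 0.170 and NRG4 at most 0.645 FPKM in any library, and NRG3 was not found in the table. EPGN, given above, was the one gene of these that averaged 0.5 FPKM or more. Its mean over the 6 libraries was 1.995 FPKM, beside 2.329 FPKM for HBEGF and 2.674 FPKM for AREG.

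Genes that release the ligands or carry the signal were described by list, and 0 genes of these lists were called. Of 9 tested genes of ligand shedding, 5 had values above 0 and 4 below (median log2 fold change 0.02). ADAM17, the main sheddase of AREG, HBEGF and TGF-alpha precursors, had 2.11 ± 0.392 FPKM in shNC and 1.78 ± 0.123 FPKM in shARHGEF2 cells (SD, n = 3 each), with overlapping groups. The most abundant genes of this list were ADAM15 (65.1 and 64.5 FPKM), TIMP3, an inhibitor of ADAM17 (29.4 and 26.8 FPKM), and RHBDF2, which brings ADAM17 to the cell surface (9.27 and 10.0 FPKM), in shNC and shARHGEF2 respectively. FRMD8, which stabilises the complex of RHBDF2 with ADAM17, had 5.97, 6.91 and 8.03 FPKM in shNC and 10.0, 8.51 and 9.11 FPKM in shARHGEF2 libraries (log2 fold change 0.36, SE 0.13, adjusted p = 0.264 in limma). It was the 1 gene of the 9 with an unadjusted p under 0.05, where 13.7% of all genes tested had one. The groups did not overlap for FRMD8 and, in the lower direction, for TIMP3, where 20.5% of all genes tested had such groups.

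Of 12 tested adaptor and effector genes, 9 were above 0 and 3 below (median log2 fold change 0.09). Of all 12291 genes tested, 6102 were above 0 and 6189 below. SHC1, the most abundant, had 71.0 ± 2.99 and 76.2 ± 2.00 FPKM, GRB2 had 36.5 ± 2.30 and 38.3 ± 1.45 FPKM, and PIK3R2, a regulatory subunit of PI3K, had 27.8 ± 5.70 and 33.7 ± 5.82 FPKM in shNC and shARHGEF2 cells (SD, n = 3 each). None of the 12 passed an unadjusted p of 0.05, and the groups did not overlap for SHC1 alone, where 20.5% of all genes tested had such groups. Of 17 tested genes of receptor degradation and trafficking, 14 were above 0 and 3 below (median 0.11), and EPN2, an endocytic adaptor, was the 1 gene with an unadjusted p under 0.05 (log2 fold change 0.25, SE 0.11, adjusted p = 0.347 in limma), again against 13.7% of all genes tested. Its groups did not overlap, and neither did those of LRIG1, a negative regulator of ERBB receptors, at 8.15 ± 1.31 and 9.75 ± 0.389 FPKM (SD, n = 3 each). These were 2 of the 17 genes, again against 20.5% of all genes tested. The most abundant were HGS (25.3 and 27.4 FPKM), RAB7A (23.4 and 27.8 FPKM) and EPN1 (20.76 and 19.97 FPKM), in shNC and shARHGEF2 respectively. The largest fitted value of this list, 0.58 for the ubiquitin ligase CBL, rested on 1 library: CBL had 0.292 FPKM in shNC replicate 1 and between 2.81 and 3.49 FPKM in the other 5 libraries. RAB7A also had 13.0 FPKM in shNC replicate 1 and between 26.5 and 29.7 FPKM in the others. The same library was the lowest for RNF41 (4.095 FPKM, against 7.455 to 8.629 FPKM in the others) and SH3KBP1 (8.821 FPKM, against 12.0 to 14.84 FPKM). The count of genes above 0 in this list therefore rests in part on 1 library.

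In the RAS-ERK core, 4 of 10 tested genes were above 0 and 6 below (median log2 fold change -0.02). MAP2K2, ARAF and MAP2K1 were its most abundant genes. HRAS, the RAS gene with the highest level, had 33.77, 31.32 and 28.96 FPKM in shNC and 25.5, 19.9 and 26.2 FPKM in shARHGEF2 libraries (log2 fold change -0.39, SE 0.12, adjusted p = 0.232 in limma). MAP2K1, which encodes the ERK kinase MEK1, had 32.6, 34.8 and 36.2 FPKM in shNC and 37.9, 43.8 and 41.1 FPKM in shARHGEF2 libraries (log2 fold change 0.24, SE 0.09, adjusted p = 0.319 in limma). These were the 2 of 10 genes with an unadjusted p under 0.05, and their groups did not overlap, nor did those of the scaffold gene KSR1. Over all genes tested, 13.7% had an unadjusted p under 0.05 and 20.5% had groups that did not overlap. MAP2K2 had 78.3 and 77.9 FPKM and ARAF 59.5 and 57.4 FPKM in shNC and shARHGEF2, with groups that overlapped.

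**Figure D5:**
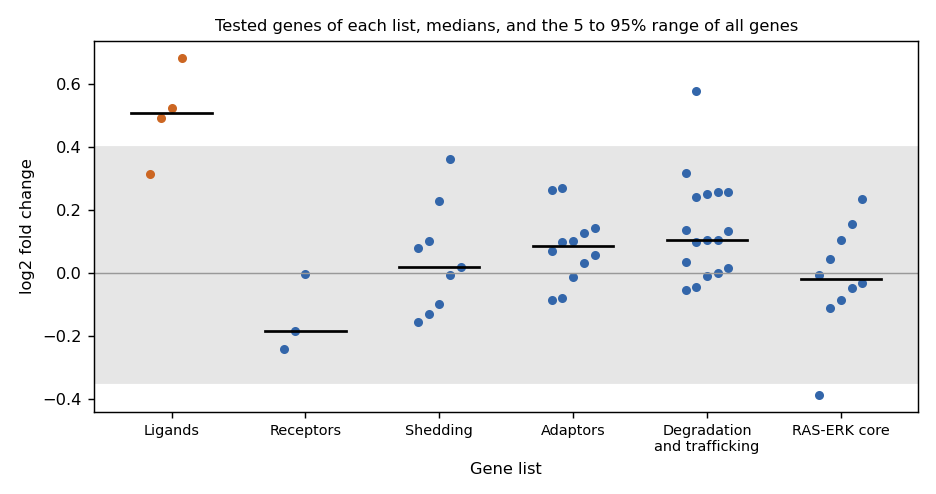
Log2 fold change of each tested gene (points) in 6 gene lists, with the list's median as a black bar and the 5th to 95th percentile of all genes tested, -0.35 to 0.40, in grey. The ligands HBEGF, EREG and AREG lie above the grey band, as does CBL among the genes of degradation, and HRAS lies below it.

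The genes whose pattern over the 6 libraries was most like that of the leading receptor and the leading ligand were looked up among the 5449 genes that averaged 5 FPKM or more. For EGFR they were RPIA, PDCD11 and NFKB1 (Pearson's r of log2(FPKM + 1) 0.979, 0.971 and 0.969), and for EREG they were MMD, SARNP and SIK1B (0.995, 0.989 and 0.988). With 6 libraries and this many genes such values are a description, and the libraries share the trend on GC content given above.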

How the data were processed

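Cells labelled HepG2 of the shNC and shARHGEF2 groups (n = 3 libraries each) were sequenced. Poly(A) libraries kept the strand and carried molecular identifiers. The authors deposited FPKM per gene and library; the submitters' processing notes name cutadapt 1.9, HISAT2 2.0.4, UMI-tools, StringTie 1.3.4d, DESeq2, edgeR and hg19, without roles. The listed transcripts are Ensembl identifiers, 94.7% of which were found in GENCODE 29 on GRCh38, the source of all gene positions. The authors' own fold changes, p-values and adjusted p-values were not used.

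limma 3.58.1 (R 4.3.3, trended and robust variances with statmod 1.5.0) was run on log2(FPKM + 1) in the 12291 genes averaging 0.5 FPKM or more, with Benjamini-Hochberg adjustment over all of them and a threshold of 0.05. It was tested on simulated data. Exact permutation tests used SciPy 1.17.1 and figures matplotlib 3.10.9. Groups came from sample titles. Depth was estimated from the spacing of low FPKM values in genes that list 1 transcript (minimum length 600 nt). The depth kept was the one that put the most values within 0.1 of a whole read pair. That share was 41.4% to 42.4%, against 20% for even spacing at a depth not chosen in this way. Whole reads were thus not recovered, the depth is a rough figure and no count test was run. Promoter sequences are from RefSeq. Named genes were ARHGEF2, the family, list genes called, the 3 most abundant of each list and the 3 nearest patterns of the leading receptor and ligand. FRMD8, ADAM17, EPN2, LRIG1, CBL, RNF41, SH3KBP1, KSR1, HRAS, MAP2K1 and the KEGG genes were named after their values were seen. Members and lists were chosen with earlier results of these data known. The alternatives tried were a pseudocount of 0.1, a replicate block, other filters, quantile normalization, plain variances and each library left out; a GC trend (loess, span 0.3) and leaving out both libraries numbered 1 were added after seeing the data.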

Additional observations from a re-analysis of the deposited data

How the results depend on the processing

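None of the 8 tested family genes and no gene of the 4 pathway lists was called in limma under any of the 14 alternatives, and at an unadjusted p under 0.05 between 2 and 4 of the 4 ligands among them were higher. Of all genes tested in the same fits, between 4.53% (no filter on low values) and 9.95% (GC trend removed) were higher at that threshold. HBEGF had an adjusted p of 0.0737 to 0.436, AREG 0.12 to 0.499, EREG 0.175 to 0.659 and TGFA 0.262 to 0.705. Only 2 ligands, AREG and HBEGF, had an unadjusted p under 0.05 with no filter on low values and without shNC replicate 1, shARHGEF2 replicate 2 or shARHGEF2 replicate 3. With 3 ligands, EREG was the one missing under quantile normalization and without shNC replicate 2. TGFA was missing without shNC replicate 3 or shARHGEF2 replicate 1, with the GC trend removed and with both libraries numbered 1 left out. The log2 fold change of ERBB3 turned positive with a pseudocount of 0.1 (0.002), quantile normalization (0.002) and the GC trend removed (0.003), and lay between -0.081 and 0.093 with 1 library left out. That of ERRFI1 turned to 0.004 with the GC trend removed and lay between -0.109 and 0.107 with 1 library left out.

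The number of genes called over the whole table, 34 (24 higher, 10 lower), depended on the setting. It was 1 with no filter on low values (0 higher, 1 lower), 54 with at least 1 FPKM in 3 libraries (39 higher), 19 with quantile normalization (12 higher), 7 without trended or robust variances (4 higher, 3 lower) and 7 with both libraries numbered 1 left out (2 higher, 5 lower). With 1 library left out it lay between 6 and 102 (3 to 76 higher, 3 to 26 lower), with 102 without shNC replicate 3 and at most 15 in the other 5 fits. With the replicate block 0 genes were called in limma (0 higher, 0 lower), 1976 had an unadjusted p under 0.05, and ARHGEF2 had an adjusted p of 0.0716 at a log2 fold change of -1.47. ARHGEF2 also missed the threshold with no filter (adjusted p = 0.0701, log2 fold change -1.47). The residuals of same-numbered libraries correlated at 0.184, 0.159 and -0.105, and those of differently numbered libraries at between -0.221 and 0.068. Libraries numbered 1 and 2 correlated best with their own number, and neither library numbered 3 did. Libraries numbered 1 and 2 also shared the sign of the trend on GC content given above. Whether the numbers mark pairs was not tested. The cause of these shifts was not tested. Transcripts near 0.5 FPKM rest on few read pairs, which limits what can be seen for NRG1 and BTC.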

Other observations

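The annotation column of the deposited table gives a wider list, the ErbB signaling pathway of KEGG, which was examined after the data were seen. It holds 73 genes beside the family genes named above, and 52 of them were tested. None of the 52 was called in limma (4 had an unadjusted p under 0.05, against 13.7% of all genes tested). Of the 52, 34 were above 0 and 18 below, where 6102 of all genes tested were above 0 and 6189 below. The median log2 fold change was 0.07, where that of all genes tested was 0.00. Besides HRAS and MAP2K1, the genes with an unadjusted p under 0.05 were PAK4 and AKT2. PAK4, a kinase that acts on the actin cytoskeleton, had 22.3 ± 3.46 FPKM in shNC and 27.0 ± 0.767 FPKM in shARHGEF2 cells (log2 fold change 0.28, adjusted p = 0.359 in limma). AKT2, a kinase downstream of PI3K, had 9.28 ± 0.667 and 7.62 ± 0.690 FPKM (SD, n = 3 each; log2 fold change -0.26, adjusted p = 0.363 in limma), while AKT1 had 11.4 ± 1.00 and 13.6 ± 0.995 FPKM (log2 fold change 0.23, adjusted p = 0.393 in limma). The difference between the changes of AKT1 and AKT2 was not tested.

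Over the 6 libraries ERBB2 was low where the ligands were high: Pearson's r of log2(FPKM + 1) was -0.93 with EREG, -0.92 with HBEGF, -0.81 with TGFA and -0.65 with AREG. Both groups and the trend on GC content enter these values, which are a description over 6 points. The listed transcripts of ERBB2 have a mean GC content of 58.7%. Those of the ligands have 39.2% for EREG, 48.4% for HBEGF, 55.9% for TGFA and 40.9% for AREG. The correlations were not computed with the GC trend removed, so its part in them was not tested. With the GC trend removed the log2 fold change of ERBB2 was -0.22 (unadjusted p = 0.0262, adjusted p = 0.208 in limma). A value near 0 in 1 library of a group that is otherwise well above it was seen for CBL, and also for CLDN4, a tight junction gene, at 0.111 FPKM in shARHGEF2 replicate 1 against 10.8 and 12.4 FPKM in the other shARHGEF2 libraries.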
